A study of Mus musculus with 20 samples.

Results

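Circadian clock genes were followed in the thoracic aorta of irradiated mice. The 10 genes described here were taken by symbol from the 21078 genes of the sense-strand count table. Arntl, Clock and Npas2 form the positive arm, Per1, Per2, Per3, Nr1d1, Nr1d2 and Bhlhe41 the negative arm, and Dbp is a clock output factor. All 20 animals were wildtype C57BL/6 males aged 10 to 12 weeks, kept under 12 h of light and 12 h of dark, with no gene alteration and no agent other than radiation. A set of 10 mice received whole-body proton radiation and another 10 received gamma radiation, 1 mouse each at 0, 5, 10, 25, 50, 75, 100, 125, 150 and 200 cGy, where the 0 cGy animals were shams placed in the irradiator. The aorta was taken 4 h after exposure, and the labels place all exposures on the same day. Doses were given in a random order inside a 6 h span, to limit effects of time of day. The clock time of each single mouse is not given in the sources used here, so its part in the values of a mouse cannot be told apart from dose. Because no dose had a second mouse of the same radiation type, each test below rests on a trend or an association over mice and not on replicates of a dose.

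The clock is a feedback loop of transcription and translation that runs in almost every cell, including the smooth muscle and endothelium of arteries. Arntl (BMAL1) pairs with Clock, or with its close relative Npas2, and the pair binds E-box sequences to switch on the Per and Nr1d genes. PER proteins then repress that pair, the NR1D (REV-ERB) proteins repress Arntl through RORE sequences, and Dbp carries the rhythm on through D-box sequences, so that the transcripts of the arms peak at different times of day.

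Counts were resampled by the authors to a common depth, and the totals over genes lay between 6051657 and 6058006 in the 20 mice. Smooth muscle markers headed the tissue, with 165116 to 332585 summed counts over 6 genes, and all 6 were at or above 4970 in every mouse. The proton mouse at 75 cGy stood apart, with 13343 summed counts over 6 brown fat markers against 454 to 4732 in the other 19 mice. In bulk tissue, fewer cells of a type and less RNA per cell cannot be told apart. The libraries also differed in how counts moved with the GC content of genes. In the 4 mice at 150 and 200 cGy, the correlation across 9702 genes between GC content and a gene's deviation from its mean was −0.401 to −0.349, and in the 16 mice at 0 to 125 cGy it was −0.018 to 0.284. Genes are not independent replicates, so this is a description of the libraries, and GC dependence and high dose cannot be told apart.

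Promoter sequence is shown first, for the members whose start holds 1 of the 3 motifs through which these arms act on each other. The RefSeq windows on GRCm38.p6 run from 250 bases before to 50 after each start, and 9 of the 10 genes matched, with 13 windows (Per2 had no entry). In each line the motif is in capitals and the strand is that of the gene. Both strands were searched.
Per3, chr4:151044796-151044843, minus strand, D-box 158 bases before the start: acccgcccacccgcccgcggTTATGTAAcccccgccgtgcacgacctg
Per3, chr4:151044843-151044890, minus strand, D-box 205 bases before the start: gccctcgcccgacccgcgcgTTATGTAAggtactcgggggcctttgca
Per1, chr11:69098763-69098808, plus strand, E-box 166 bases before the start: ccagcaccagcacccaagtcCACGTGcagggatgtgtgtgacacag
Bhlhe41, chr6:145865548-145865593, minus strand, E-box 153 bases before the start: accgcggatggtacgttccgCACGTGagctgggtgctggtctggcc
Arntl, chr7:113207531-113207557, plus strand, RORE core at transcribed position 31: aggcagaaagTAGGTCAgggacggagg

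The E-box (CACGTG) was in 7.15% of the 32851 promoter windows of all genes, the D-box (TTATGTAA or TTACGTAA) in 1.056% and the RORE core (TAGGTCA or TGGGTCA) in 6.453%. A match of these letters is a description and not a shown binding site. The gene positions given from here on are from the mm9 annotation and are not on the GRCm38.p6 scale of the lines above.

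Among the clock genes, Per2 and Arntl had the highest levels per transcript length. Per kilobase of exon and per 1000000 counts of the library, the median over the 20 mice was 25.7 for Per2 and 22.4 for Arntl. Per1 at 11.1, Npas2 at 10.7 and Clock at 10.6 followed, and the ranges of these 3 overlapped (4.02 to 20.1, 6.52 to 17.1 and 8.64 to 15.6). Nr1d1 at 4.47, Nr1d2 at 3.10, Bhlhe41 at 2.86, Dbp at 2.27 and Per3 at 2.25 were lowest, again with overlapping ranges. All 10 genes passed the filter (mean count of 5 or more), as did 13124 genes in all.

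The spread between mice differed widely among the members. The biological coefficient of variation, fitted with radiation type alone, was 41.0% for Per1, 34.1% for Nr1d1, 31.3% for Nr1d2 and Dbp, 28.2% for Per2 and 25.7% for Npas2, against a median of 15.3% over all genes tested. Per3 had 20.6%, Clock 17.9% and Bhlhe41 16.9%. Arntl was the steadiest at 13.1%, below the median of all genes.

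In the positive arm, Arntl (chromosome 7, 120350979 to 120457636, plus strand) had a lowest count of 261, a median of 390 and a highest of 432 in the proton mice, and 344, 403 and 450 in the gamma mice. The proton value of 261, at 125 cGy, was the lowest of all 20 mice. Npas2 (chromosome 1, 39250576 to 39420079, plus strand) ranged more widely, with 189, 273 and 464 in proton mice and 237, 324 and 495 in gamma mice. Its 5 highest counts, 406 to 495, were all at 50 cGy or below, and the 4 mice at 150 and 200 cGy held 220 to 267. Clock (chromosome 5, 76639992 to 76733817, minus strand), the DNA-binding partner of BMAL1, had 462, 550 and 806 in proton mice and 540, 596 and 832 in gamma mice. The 4 mice at 150 and 200 cGy had 799 to 832 Clock counts and the other 16 had 462 to 620, with no overlap.

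In the negative arm, Per1 (chromosome 11, 68908719 to 68923462, plus strand), the immediately inducible Period gene, had 142, 346 and 581 counts in proton mice and 137, 409 and 687 in gamma mice. In the gamma series it read 137 in the sham, 235, 400, 174 and 284 at 5 to 50 cGy, and 417, 446, 687, 538 and 486 at 75 to 200 cGy, so the 5 lower doses and the 5 higher ones did not overlap. This split was made after the counts were seen, Per1 was the only member it parted in gamma mice, and 3.21% of all genes tested parted the same way. In the proton series those Per1 groups did overlap, at 142 to 448 and 312 to 581, and 0.724% of all genes parted. Per2 (chromosome 1, 93312561 to 93355907, minus strand), the Period gene with the most reads, had 427, 880 and 1445 in proton mice and 727, 960 and 1411 in gamma mice. Its extremes were the proton mice at 75 and 5 cGy. Per3 (chromosome 4, 150377761 to 150418774, minus strand), the Period gene that the core loop can run without, had 108, 149 and 203 in proton mice and 92, 114 and 179 in gamma mice. The proton sham had its lowest proton value and the gamma sham its highest gamma value.

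The nuclear receptors Nr1d1 (chromosome 11, 98629246 to 98636647, minus strand) and Nr1d2 (chromosome 14, 19036568 to 19071641, minus strand) were each dominated by a single mouse. Nr1d1 had 51, 79.5 and 228 counts in proton mice and 51, 84.5 and 120 in gamma mice. Nr1d2 had 82, 102 and 254 in proton mice and 66, 91.5 and 161 in gamma mice. Both highest values belonged to the 125 cGy proton animal, against 108 and 136 in the runner-up of that series. Bhlhe41 (chromosome 6, 145806763 to 145814078, minus strand), the DEC2 repressor that competes for E-boxes, had 84, 110 and 177 in proton mice and 81, 108 and 137 in gamma mice. Its 81 to 99 counts at 150 and 200 cGy lay below the 100 to 177 of all other mice. Dbp (chromosome 7, 52960458 to 52965525, plus strand), the D-box factor, had the fewest reads, with 21, 45 and 87 in proton mice and 17, 38 and 58 in gamma mice. Every irradiated gamma mouse was below its sham of 58, whereas 8 of the 9 irradiated proton mice were above theirs of 36.

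**Figure D1:**
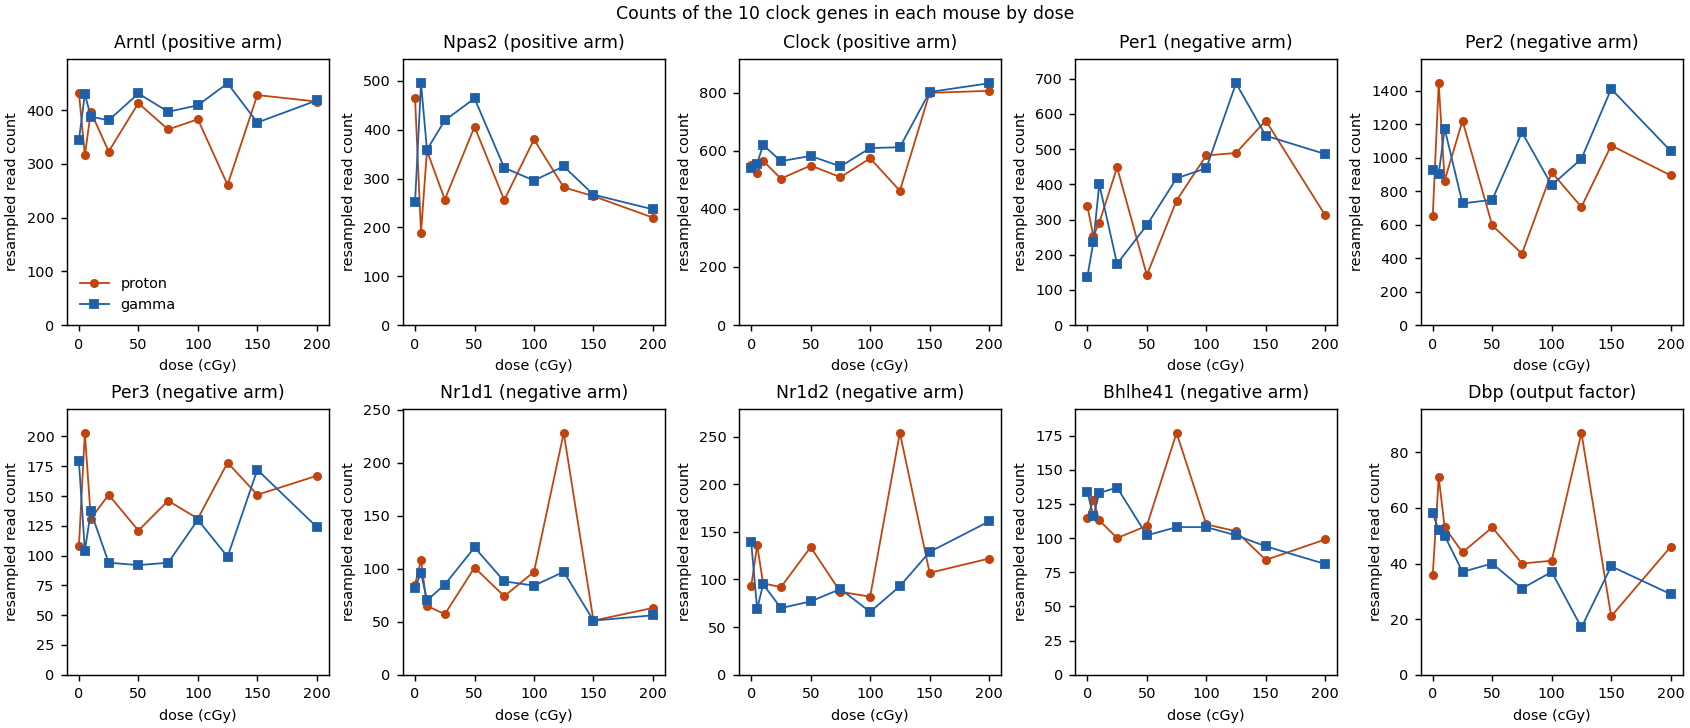
Resampled read count (y axis, from 0) against dose in cGy (x axis) for each clock gene, 1 point per mouse, with proton mice as circles and gamma mice as squares. Clock sits at 799 to 832 in the 4 mice at 150 and 200 cGy, and the proton mouse at 125 cGy holds the highest Nr1d1 (228), Nr1d2 (254) and Dbp (87).

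The dose trend asked whether clock genes changed with dose within each radiation type. In gamma mice, Clock and Per1 rose and Bhlhe41 fell with dose, and in proton mice no member passed the threshold. In the fit across all genes (edgeR quasi-likelihood test, Benjamini-Hochberg adjusted p under 0.1), the gamma slope of Per1 was 0.77 on the log2 scale per 100 cGy (SE 0.25, adjusted p = 0.0945). Clock had a gamma slope of 0.26 (SE 0.09, adjusted p = 0.0928) and Bhlhe41 one of −0.33 (SE 0.10, adjusted p = 0.0778). These were 3 of 10 members, against 7.65% of all genes tested, where 714 genes rose and 290 fell. The median gamma slope was 0.03 over the members and 0.01 over all genes.

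Each of these gamma calls was narrow. None of the 3 passed at an adjusted p of 0.05, with dose as log2(dose + 1), with genes of any count kept, or when only 0 to 125 cGy was fitted. Over that range Clock had a gamma slope of 0.04, against 1.17 for Per1 and −0.34 for Bhlhe41. A correction for GC content took the Clock slope to 0.16 (adjusted p = 0.321), while Per1 (0.87, adjusted p = 0.0812) and Bhlhe41 (−0.40, adjusted p = 0.0655) passed. Leaving out both mice of 1 dose ended the Clock call for 0, 5, 25, 50, 150 and 200 cGy, the Per1 call for all doses except 10 and 50 cGy, and the Bhlhe41 call for all except 75, 100 and 125 cGy. The slopes kept their signs in these fits, at 0.20 to 0.29, 0.63 to 1.02 and −0.36 to −0.32, with the largest adjusted p at 0.531, 0.227 and 0.38.

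**Figure D2:**
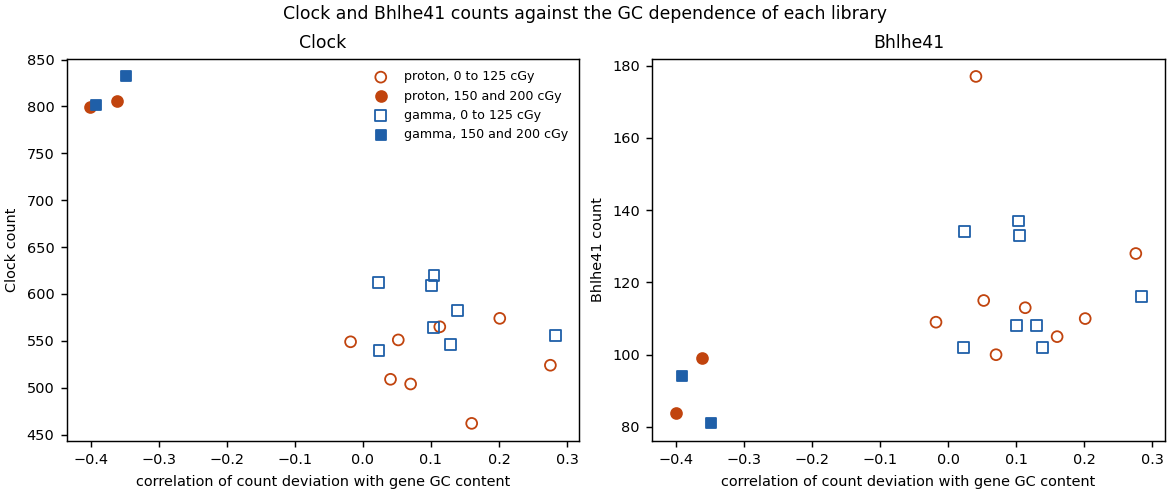
Counts of Clock and Bhlhe41 (y axes) against each library's correlation of count deviation with gene GC content (x axes), 1 point per mouse, filled for 150 and 200 cGy and open for 0 to 125 cGy. The filled points lie at −0.401 to −0.349, apart from all others on the x axes. Their Clock counts are also apart, at 799 to 832 against 462 to 620. Their Bhlhe41 counts, 81 to 99, lie directly below the 100 to 177 of the open points.

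Clock and Bhlhe41 were also the 2 of 10 members whose counts at 150 and 200 cGy did not overlap those of the 16 mice at lower doses, and 9.27% of all genes tested did the same, 892 above and 324 below. The longest protein-coding transcript of Clock is GC-poor, at 41.6%, and that of Bhlhe41 holds 47.5%. Nr1d2 (41.8%) and Arntl (48.1%) are close to these in GC content, and their counts overlapped between the dose groups. Nr1d2 had 107 to 161 at 150 and 200 cGy against 66 to 254, and Arntl 377 to 428 against 261 to 450. The part of GC content in the split was not tested. The split by dose was made after the counts were seen and carries no test.

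The other gamma slopes did not pass the threshold. Npas2 had −0.37 (SE 0.17, adjusted p = 0.249) and Dbp −0.48 (SE 0.22, adjusted p = 0.252), both with an unadjusted p under 0.05. Npas2 passed in 1 of 22 alternative fits, the one without both mice at 0 cGy (edgeR adjusted p = 0.0867). Nr1d1 had −0.29, Nr1d2 0.29, Per2 0.16, Arntl 0.04 and Per3 0.02, with standard errors of 0.09 to 0.27. Arntl, the hub of the loop, thus had the flattest slope of the positive arm in either series.

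In proton mice the slopes of Clock (0.28, SE 0.09, adjusted p = 0.133), Per1 (0.35, SE 0.25), Npas2 (−0.23, SE 0.17), Bhlhe41 (−0.14, SE 0.10) and Dbp (−0.10, SE 0.22) had the gamma signs, as did Arntl (0.05), Per3 (0.11) and Nr1d2 (0.25). Nr1d1 (0.12, SE 0.27) and Per2 (−0.07, SE 0.20) had the opposite sign to gamma. None of the 10 members passed, against 1.76% of all genes, and Clock was the only one with an unadjusted p under 0.05. Clock passed without the proton mouse at 125 cGy, at 0.34 (adjusted p = 0.0216), and without the proton mouse at 75 cGy, at 0.27 (adjusted p = 0.0937), but was at −0.10 when 150 and 200 cGy were left out. The difference of the proton and gamma slopes did not pass for any member, nor for any gene (0% of 13124 by edgeR, with 254 genes at an unadjusted p under 0.05 and 1 called by DESeq2). The proton minus gamma difference was 0.02 (SE 0.12) for Clock, −0.42 (SE 0.36) for Per1 and 0.19 (SE 0.15) for Bhlhe41.

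**Figure D3:**
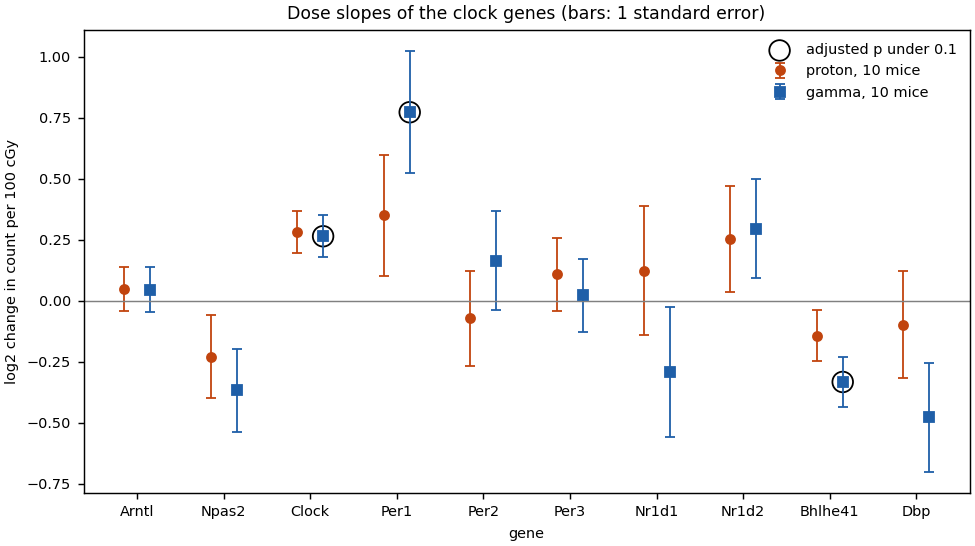
Log2 change in count per 100 cGy (y axis) for each clock gene (x axis) in the 10 proton mice (circles) and the 10 gamma mice (squares), with bars of 1 standard error. The ringed points, Clock at 0.26, Per1 at 0.77 and Bhlhe41 at −0.33 in gamma mice, passed an adjusted p of 0.1.

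A trend by ranks gave a narrower set. With an exact two-sided permutation test of Spearman's rho against dose, adjusted over all genes, 1 of 10 members passed in gamma mice, against 1.8% of all genes. That member was Per1, with rho = 0.891 (exact permutation p = 0.0011, adjusted p = 0.0837). Bhlhe41 had rho = −0.860 (adjusted p = 0.108), Dbp −0.802 (adjusted p = 0.150) and Clock 0.733 (adjusted p = 0.224). In proton mice 0 of 10 members passed, against 0.0838% of all genes, where the exact permutation test had 876 genes at an unadjusted p under 0.05, and the member with the smallest p was Bhlhe41, with rho = −0.673 (adjusted p = 0.739).

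Proton and gamma mice were then compared at matched dose, with dose as a block. No member passed, and no gene did (0% of 13124 by edgeR, with 1032 at an unadjusted p under 0.05 and 50 called by DESeq2). Clock was lower in the proton mouse of 9 of the 10 dose pairs, by 0.12 on the log2 scale (a proton minus gamma difference of −0.12, SE 0.05, adjusted p = 0.52). Per3 was higher in the proton mouse in 7 of 10 pairs, with a difference of 0.28 (SE 0.15, adjusted p = 0.693), and Dbp in 8 of 10, with 0.29 (SE 0.24, adjusted p = 0.795). Arntl (−0.13, SE 0.09) and Npas2 (−0.18, SE 0.18) read lower in the proton mouse in 7 and 8 of 10 pairs.

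The relations between the arms were read across the 20 mice. Npas2 and Per3 ran most clearly opposite to each other, and Arntl and Per3 did so as well. Over the 36 pairs of members without Clock, 8 passed an adjusted p of 0.1 by Spearman's rho and 8 by Pearson's r of log2(count + 1), with permutation tests adjusted over all 45 pairs. Clock was taken apart because its counts fall into 2 separate clusters of 4 and 16 mice. Its pairs are therefore given over the 16 mice unless all 20 are named.

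Npas2 against Per3 had rho = −0.738 (permutation p = 0.00023, adjusted p = 0.0104) and r = −0.776 (permutation p = 7e-05, adjusted p = 0.00315). Within proton mice rho was −0.835 and within gamma mice −0.608, and r was −0.710 without the 2 mice farthest from the Npas2 median. The 3 mice with the most Npas2 (464 to 495) had 92 to 108 Per3 counts, and the proton mouse with the least Npas2 (189) had the most Per3 (203). Arntl against Per3 had rho = −0.666 (permutation p = 0.00187, adjusted p = 0.037) and r = −0.649 (permutation p = 0.00128, adjusted p = 0.0144). It was −0.598 within proton mice and −0.602 within gamma mice, and r was −0.531 without the 2 mice farthest from the Arntl median, where it no longer passed (adjusted p = 0.163). Within a radiation type alone, with 10 mice, no pair passed by rho, and 1 passed by r, which was Npas2 and Per3 in proton mice (r = −0.921, permutation adjusted p = 0.0108).

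Arntl and Npas2 leaned the same way without passing, at rho = 0.463 (permutation p = 0.0411, adjusted p = 0.142) and r = 0.451 (permutation p = 0.0449, adjusted p = 0.126). They passed over the 16 mice at 0 to 125 cGy, with rho = 0.705 (adjusted p = 0.0354). Over those 16 mice Arntl and Clock had rho = 0.661 (permutation p = 0.00644, adjusted p = 0.058) and r = 0.799 (permutation p = 0.00028, adjusted p = 0.00495). Within the 10 proton mice of all doses rho was 0.758, and within the 10 gamma mice 0.188. Over the 19 mice of all doses without the proton mouse at 125 cGy, neither measure passed. There rho was 0.496 (permutation adjusted p = 0.14) and r was 0.417 (permutation adjusted p = 0.163). Over the 16 mice, Arntl and Clock was the only pair with Clock that passed by rho. By r, Clock also passed against Nr1d2 (r = −0.652, permutation adjusted p = 0.0371) and Dbp (r = −0.583, permutation adjusted p = 0.0812). Their rho of −0.416 and −0.439 did not pass.

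Dbp ran opposite to Arntl, at rho = −0.567 (permutation p = 0.0101, adjusted p = 0.066) and r = −0.693 (permutation p = 0.0009, adjusted p = 0.0135). Part of this lay in the proton mouse at 125 cGy, which had the least Arntl (261) and the most Dbp (87). Without it rho was −0.494 (adjusted p = 0.14) and r −0.578 (adjusted p = 0.0573). The other end of the relation was the gamma mouse at 125 cGy, with the most Arntl (450) and the least Dbp (17). Dbp against Npas2 had rho = −0.094, far from the threshold.

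Nr1d1 had no steady relation to Arntl or Npas2. Against Arntl its rho was 0.005 and its r −0.430 (permutation p = 0.0636, adjusted p = 0.168), with rho −0.491 in proton mice and 0.685 in gamma mice. Without the proton mouse at 125 cGy, r went to 0.090. Against Npas2 Nr1d1 had rho = 0.427 (permutation p = 0.0624, adjusted p = 0.201). Against Clock, Nr1d1 had rho = −0.046 and r = −0.376 (permutation adjusted p = 0.374) over the 16 mice at 0 to 125 cGy. The 4 mice at 150 and 200 cGy had the highest Clock counts and 51 to 63 Nr1d1 counts. On residuals after radiation type and a straight-line dose trend, over all 20 mice, rho was −0.641 (permutation adjusted p = 0.0459). Such residuals can keep the clusters of Clock, so this value does not separate a relation of the genes from high dose. Nr1d2 behaved differently, with rho = −0.571 against Npas2 (permutation p = 0.01, adjusted p = 0.066) and r = −0.528 (permutation p = 0.0154, adjusted p = 0.0832). That pair was −0.200 within proton mice, −0.685 within gamma mice, and r was −0.441 without the 2 farthest mice (adjusted p = 0.226). Nr1d2 against Arntl had r = −0.573 (adjusted p = 0.071) but rho = −0.286 (adjusted p = 0.356), and r was −0.236 without the proton mouse at 125 cGy.

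Per1 and Per2 did not follow the positive arm in these mice. Against Arntl, Per1 had rho = 0.076 and Per2 −0.197, and against Npas2 they had −0.234 and −0.419 (permutation p = 0.0671, adjusted p = 0.201). Without the proton mouse at 75 cGy, which had the fewest Per2 counts and the most brown fat markers, Npas2 against Per2 passed, at rho = −0.566 (adjusted p = 0.0796). Per2 also moved with markers of other cell types. Over 80 relations of members with marker scores and GC dependence, computed after the data were seen, Per2 fell with the endothelial score (rho = −0.659, permutation p = 0.00222, adjusted p = 0.0731, r = −0.642 with permutation p = 0.00208) and with the macrophage score (rho = −0.647, permutation p = 0.00274, adjusted p = 0.0731, r = −0.624 with permutation p = 0.00286). Within proton mice these rho were −0.818 and −0.806 and within gamma mice −0.479 and −0.503, and r was −0.597 and −0.619 without the 2 farthest mice. The other relation past the threshold by rho was of Nr1d1 with the GC dependence of the libraries, where the mice form 2 clusters, and rho over the 16 mice at 0 to 125 cGy was 0.358. By r, 5 relations passed, including Clock with GC dependence (r = −0.867, permutation adjusted p = 0.0064). Its rho over those 16 mice was −0.003. Per2 with the brown fat score also passed by r (−0.612, permutation adjusted p = 0.0731), and r was −0.364 without the 2 farthest mice. The part of brown fat was not tested. The endothelial markers summed to 2232 to 7793 counts and the macrophage markers to 413 to 2653, with all of them detected in every mouse, and their part in the Per2 values was not tested.

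**Figure D4:**
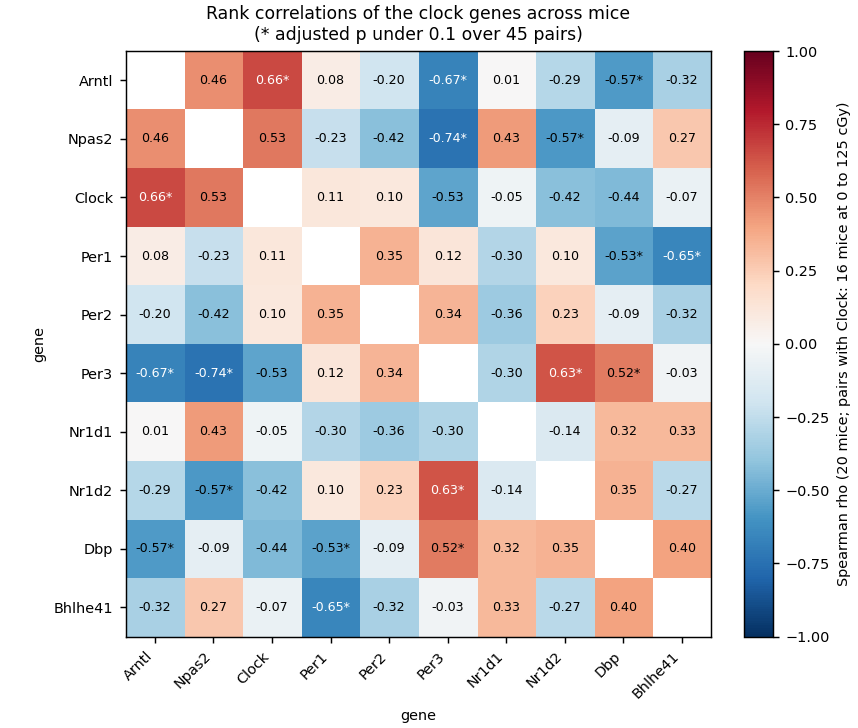
Spearman's rho for each pair of clock genes over the 20 mice, with pairs that include Clock over the 16 mice at 0 to 125 cGy, on a scale from −1 (blue) to 1 (red), and a star for an adjusted p under 0.1. Per3 is blue against Npas2 (−0.74) and Arntl (−0.67) and red against Nr1d2 (0.63) and Dbp (0.52).

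Inside the negative arm and output, the members did not move as a block. Per3 rose with Nr1d2 (rho = 0.627, permutation p = 0.00377, adjusted p = 0.0424, r = 0.622 with permutation adjusted p = 0.0235) and with Dbp (rho = 0.523, permutation p = 0.019, adjusted p = 0.0927, r = 0.506 with permutation adjusted p = 0.0832). Without the 2 mice farthest from the Per3 median, r was 0.585 and 0.455 (adjusted p = 0.107 and 0.217), so neither passed. Per1 ran opposite to Bhlhe41 (rho = −0.649, permutation p = 0.00247, adjusted p = 0.037, r = −0.487 with permutation adjusted p = 0.1005) and to Dbp (rho = −0.532, permutation p = 0.017, adjusted p = 0.0927, r = −0.507 with permutation adjusted p = 0.0832). Since Per1 and Bhlhe41 both had slopes on dose in gamma mice, their relation was also taken on residuals after radiation type and dose, where rho was −0.150 (adjusted p = 0.719). The call of Per1 and Dbp was lost in 5 of 9 alternative settings. Over the 16 mice at 0 to 125 cGy its rho was −0.338 (permutation adjusted p = 0.528). The 3 Period genes were only loosely related, with rho of 0.350 for Per1 and Per2, 0.338 for Per2 and Per3, and no pair past the threshold. The 2 Nr1d genes had rho = −0.141.

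**Figure D5:**
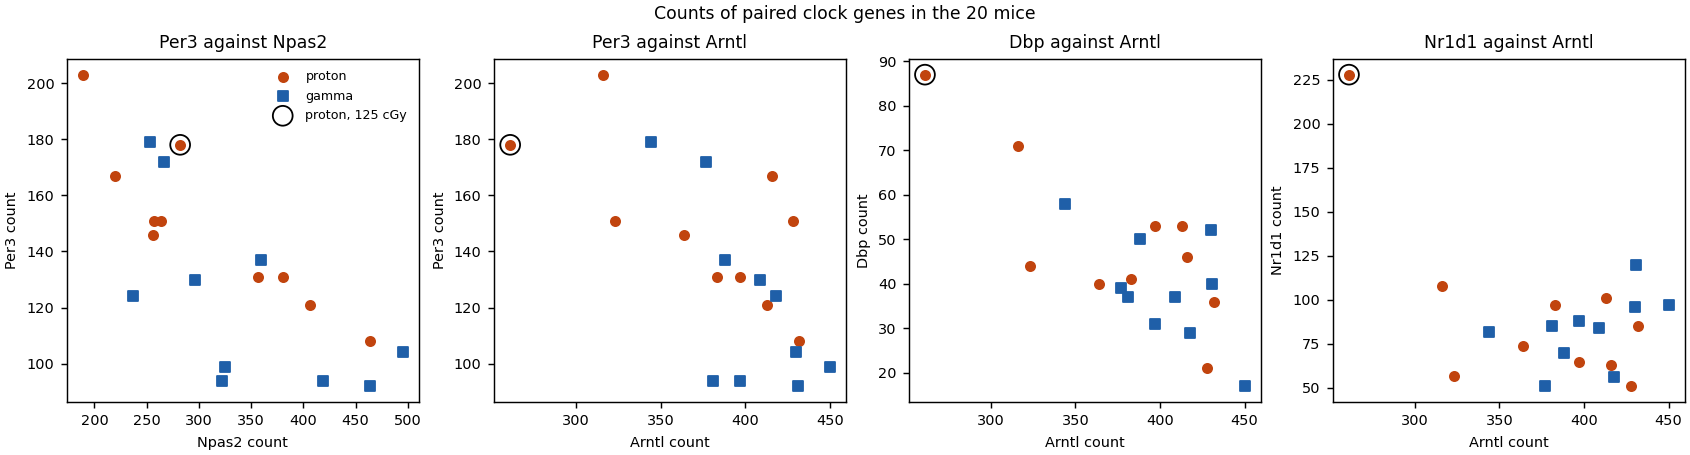
Counts in each mouse of Per3 against Npas2, Per3 against Arntl, Dbp against Arntl and Nr1d1 against Arntl, with proton mice as circles, gamma mice as squares and the proton mouse at 125 cGy ringed. Per3 declines along both positive arm genes in both series, and the ringed mouse lies apart in the Nr1d1 panel at 261 Arntl and 228 Nr1d1 counts.

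Single mice with extreme counts are described here, picked from the same counts as the correlations, so they add no separate support. The proton mouse at 125 cGy had the lowest Arntl and Clock of the 20, the highest Nr1d1, Nr1d2 and Dbp, and the third highest Per3 (178). The same mouse ranked only 17 from the highest for Per2 (706) and 12 for Npas2 (282). It also had the most summed counts of the 5 fibroblast markers, 57023 against 23738 to 55459 in the others. Its endothelial counts were 7688, and the part of these cell types was not tested. The proton mouse at 5 cGy had the least Npas2 (189), the most Per2 (1445) and Per3 (203) and the second most Dbp (71), with Arntl at 316. At the other end, the gamma mouse at 50 cGy had 464 Npas2 and the fewest Per3 counts (92), but the second most Nr1d1 (120). The proton and gamma shams lay on opposite sides of this range. The proton sham had 432 Arntl, 464 Npas2 and 108 Per3 counts, and the gamma sham had 344, 253 and 179. Per1 in the shams was 338 and 137, and Dbp was 36 and 58. The ratio of the proton to the gamma sham was 1.83 for Npas2, 0.603 for Per3 and 2.47 for Per1.

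To take dose and radiation type into account, each gene was regressed on Arntl with both as covariates. No gene passed, clock members included (0% of 13123 by edgeR, with 520 at an unadjusted p under 0.05 and 4 called by DESeq2). The members at an unadjusted p under 0.05 were Npas2 at 0.94 (SE 0.35) and Clock at 0.57 (SE 0.20) on the log2 scale per doubling of Arntl, and Per3 at −0.98 (SE 0.33), Nr1d1 at −1.20 (SE 0.50), Nr1d2 at −1.41 (SE 0.39) and Dbp at −1.40 (SE 0.43), all with an adjusted p of 0.999. The other 3 were Per1 at −0.06, Per2 at −0.36 and Bhlhe41 at −0.20. Both positive arm genes were above 0 and all 6 negative arm genes below 0, with no test of that count. Of all 13123 genes, 6918 were below 0. Per1 (SE 0.61), Per2 (SE 0.56) and Bhlhe41 (SE 0.27) lay within 1 standard error of 0. The Nr1d1 value turned to 0.77 without the proton mouse at 125 cGy. A separate slope for each radiation type, added after the data were seen, gave Nr1d1 −1.86 in proton and 1.87 in gamma mice, a proton minus gamma difference of −3.73 (SE 1.05, adjusted p = 0.588) that was −2.02 without that mouse.

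The same regression on Npas2 singled out Per3 among the members, without a call. Its slope was −0.73 (SE 0.13, unadjusted p = 2.76e-05, adjusted p = 0.181 by edgeR), and none of the 9 members tested passed, against 0.00762% of 13123 genes, or 1 gene, with 559 at an unadjusted p under 0.05. DESeq2 called Per3 (adjusted p = 0.00511), and so did edgeR with the brown fat score as a covariate (adjusted p = 0.0984) or without both mice at 75 cGy (adjusted p = 0.049). Over all 23 alternatives its slope ran from −0.88 to −0.64, with an adjusted p from 0.00511 to 1. Arntl (0.31, SE 0.11) and Per2 (−0.58, SE 0.26) were at an unadjusted p under 0.05.

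Other genes of the clock pathway were read from fixed lists against the same dose fit, in which 7.65% of all genes passed in gamma mice and 1.76% in proton mice. Of 9 other core clock genes, 8 were tested (Rorb was not, with 16 mice at 0 counts). In gamma mice 1 of these rose, 0 fell and 7 did not pass, a share not far from that of all genes, with a median slope of 0.14. That gene was Arntl2, the BMAL1 relative, at 0.32 (SE 0.11, adjusted p = 0.0983), and Rora, which activates Arntl through ROREs, had 0.29 (adjusted p = 0.11), Timeless 0.42 and the repressor Cry2 −0.09. In proton mice 0 of 8 passed, with a median of −0.07 and with Cry2 at −0.17, Ciart at 0.66, Rora at 0.19 and Arntl2 at 0.18. Of 8 kinases and ubiquitin ligases that set the stability of clock proteins, 0 passed in either series. Gsk3b, a kinase of several clock proteins, had 0.20 in proton mice (adjusted p = 0.136) and 0.15 in gamma mice (adjusted p = 0.177).

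Of 10 clock output genes, 1 rose, 0 fell and 9 did not pass in each series, a share near the 7.65% of all genes in gamma mice. That gene was Wee1, the mitotic inhibitor kinase, at 0.47 in gamma mice (SE 0.11, adjusted p = 0.0264) and 0.43 in proton mice (SE 0.11, adjusted p = 0.0637). Its proton call was lost without both mice at 5, 10, 25, 50, 150 or 200 cGy, where the slope was 0.39 to 0.47, and its gamma call without those at 200 cGy, at 0.57 (adjusted p = 0.126). Lonrf3 had 0.95 and 0.92 (adjusted p = 0.122 and 0.184), Hlf −0.18 and −0.19, and the glucocorticoid-regulated Tsc22d3 0.45 in gamma mice. Along Npas2, the Dbp relative Tef had −0.52 and Usp2 −0.74, and the D-box repressor Nfil3 had 0.74 (unadjusted p = 0.0049, 0.0104 and 0.0093). Along Arntl, Nfil3 had 1.40 (unadjusted p = 0.0051). None of these passed after adjustment (adjusted p = 0.983 and 0.999).

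Glucocorticoids can reset peripheral clocks and induce Per1. Of 6 glucocorticoid-induced genes, 3 rose, 0 fell and 3 did not pass in gamma mice, with a median slope of 0.64, and 0 of 6 passed in proton mice, with a median of 0.34, against 7.65% and 1.76% of all genes. The 3 were Sgk1 at 0.58 (SE 0.14, adjusted p = 0.0304), Klf9 at 0.42 (SE 0.11, adjusted p = 0.0368) and Zbtb16 at 1.38 (SE 0.35, adjusted p = 0.0418), and Fkbp5 had 0.70 (adjusted p = 0.305). None of their slope differences between the series passed. The gamma slopes of all 6 ran from −0.18 to 1.38. Any part of glucocorticoids in the Per1 values was not tested. Leaving out both mice at 200 cGy ended the calls of Sgk1 (0.53, adjusted p = 0.205) and Klf9 (0.47, adjusted p = 0.193), and leaving out those at 5 cGy ended those of Klf9 (0.38, adjusted p = 0.108) and Zbtb16 (1.31, adjusted p = 0.103). All 6 listed targets of p53, the DNA damage factor, rose in both series. Slopes ran from 0.40 for Mdm2 to 1.57 for Eda2r in proton mice and from 0.42 to 1.73 for the same genes in gamma mice. The paper already lists every one of these targets as dose-responsive to both radiation types in the same mice. Their rise was thus known beforehand and is no test of p53 targets in general.

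Outside the pathway lists, the genes most like Arntl across the 20 mice were ranked among the 9807 genes averaging 50 counts or more. The highest rho were Krr1 (0.678), Rnft1 (0.673), Tab2 (0.666), Map4k4 (0.644) and Sgce (0.638), and the lowest were Ppp6r1 (−0.762), Wdr55 (−0.747), Mrfap1 (−0.744), BC031181 (−0.698) and Banf1 (−0.696). On that scale Npas2 ranked 74 from the top, and Per3 ranked 10 from the bottom. Clock, with its 2 clusters of mice, ranked 18 from the top. From the bottom, Bhlhe41 ranked 925, Nr1d2 1227, Per2 2159, Nr1d1 5422 and Per1 6677. Along Npas2, Per3 ranked 6 from the bottom of the same genes. These are descriptions over shared libraries.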

How the data were processed

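Libraries were made from polyadenylated RNA of 20 aortas and sequenced as 100 base pairs of stranded paired reads. The authors aligned reads with STAR 2.5.2a to mm9 (CASAVA 1.8.1 is also named in the submitters' processing notes), and with the PORT pipeline resampled every sample to a common read number before counting, so the deposited values are whole-number sense counts per gene that were already equalised for depth. Here, 13124 genes averaging 5 or more counts were fitted with edgeR 4.0.16 (R 4.3.3, quasi-likelihood test, TMM, robust), with DESeq2 1.42.0 as an alternative, at an adjusted p of 0.1. Rank trends used all orders of the 10 doses, and correlations used 100000 permutations with a pseudocount of 1. The fits were tested on simulated data. Groups and doses came from the labels, and no count column was left unused. The members and lists were chosen with earlier results of these data known. Text names all 10 members, up to 4 genes of lowest p per list, and the 5 genes highest and lowest in rho with Arntl, except 1 list gene that is not reported here. P-values set a trend, difference or association against the variation between single mice, with no replicates of a dose within a radiation type. In the edgeR dose fits that variation also holds departures from a straight line in dose. Nr1d1 overlaps Thra and Dbp overlaps Sphk2 on opposite strands, which stranded counting keeps apart as far as the strand of each read was kept.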

Additional observations from a re-analysis of the deposited data

Results flagged for a closer look

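Within each radiation type, the gap from the highest or lowest mouse to its neighbour was set against the range of the 10 mice, in 20 groups (10 genes in 2 series), and chance marks about 1 in 20 such groups. The test marked 3. Nr1d1 was 228 in the proton mouse at 125 cGy, against 108 in the next proton mouse, a gap of 0.678 of the range, above the 95% critical value for 10 samples. Nr1d2 was 254 in that same mouse, against 136, a gap of 0.686. Bhlhe41 was 177 in the proton mouse at 75 cGy, against 128, a gap of 0.527, in the aorta with the most brown fat markers, whose part was not tested.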

How the results depend on the processing

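Depth was equal across mice, so counts of 17 to 87 for Dbp and 51 to 228 for Nr1d1 limit those genes most. The proton dose fit called 231 genes, which became 139 with any count, 76 at an adjusted p of 0.05, 14 for 0 to 125 cGy, 497 with the brown fat score, 121 with the GC correction, 22 with log2(dose + 1), 127 with Arntl as a covariate, 637 without the proton mouse at 125 cGy and 491 without that at 75 cGy. It was 28 to 636 without both mice of 1 dose. Members called there were 1 (Clock) without either of these proton mice, and 0 to 1 without 1 dose. The gamma fit called 1004 genes, which became 618, 435, 34, 1603, 481 and 45 under the first 6 of these settings, 1583 without the proton mouse at 75 cGy, and 94 to 1444 without 1 dose. Its 3 members became 0 with any count, at 0.05, for 0 to 125 cGy and with log2(dose + 1). They became 1 with Arntl as a covariate, and 0 to 2 without 1 dose. Without both mice at 0 cGy the 1 member called was Npas2, not 1 of these 3.

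DESeq2 called 1 gene for the slope difference, 50 for radiation type, 4 along Arntl and 4 along Npas2. Radiation type gave 3 genes with any count, 2 with the brown fat score, 20 without the proton mouse at 75 cGy, and 0 to 20 without 1 dose. Along Npas2, the 1 gene called became 2 with any count and with the brown fat score, 0 at 0.05, for 0 to 125 cGy, with the GC correction, with no covariates, in either radiation type alone and without either of those proton mice, and 0 to 2 without 1 dose. The member count there went from 0 to 1 with DESeq2 and the brown fat score, and was 0 to 1 without 1 dose.

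Rank trends in proton mice, 11 genes, became 7 at a mean count of at least 50, 2 at 0.05 and 25 by a fitted line. In gamma mice, 236 became 92 at 0.05 and 1115 by a fitted line, and the member count of 1 became 2 at a mean of at least 50 and by a fitted line, and 0 at 0.05. Of all 45 pairs, Clock included, 10 passed by rho and 12 by r. By rho this became 0 in either radiation type alone, 6 on residuals and 4 without the 2 farthest mice. By r it became 1 in proton mice, 0 in gamma mice and 1 without the 2 farthest mice.

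Signs turned in 11 of 1162 single values. For 0 to 125 cGy the proton slopes were 0.0201 for Bhlhe41, −0.10 for Clock and 0.28 for Dbp. The Dbp proton slope was 0.0135 with the GC correction and −0.28 to 0.0745 without 1 dose, above 0 without 5 or 150 cGy, and that of Zbtb16 was −0.13 (without 150 cGy) to 0.89. Along Arntl, Nr1d1 was 1.88 in gamma mice, 0.77 without the proton mouse at 125 cGy and −1.50 to 0.60 without 1 dose, with 0.60 at 125 cGy, and Clock was −0.12 in gamma mice. The cause of these changes was not tested. The settings that leave out the proton mouse at 125 or at 75 cGy were chosen after seeing the data. No paired analysis was possible because the replicate number, which only names a mouse here, links no mice across radiation types, so the comparison of types instead matched mice by dose, the label that both types share. Without that dose block the count of genes called was 0 as well.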
